A study of Homo sapiens with 12 samples.

Results

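The genes described here are CIITA and 9 genes of the major histocompatibility complex (MHC) class II pathway, CD74, HLA-DRA, HLA-DRB1, HLA-DPA1, HLA-DPB1, HLA-DMA, HLA-DMB, HLA-DOA and HLA-DOB. They were taken by symbol from a table of 63129 annotated genes, on the primary chromosomes, and all 10 were among the 18731 genes tested. The 12 RNA-seq libraries came from 3 established human lymphoma lines of the germinal centre subtype of diffuse large B cell lymphoma. All 3 carry an activating EZH2 mutation in the SET domain, EZH2 being the catalytic subunit of the Polycomb complex PRC2. For KARPAS-422 there were 3 libraries with 1.5 µM of the EZH2 inhibitor CPI-169 and 3 with 0.1% DMSO. For Pfeiffer there were 2 with 1.5 µM of another EZH2 inhibitor, GSK343, and 2 with DMSO, and for RL there were 2 with DMSO, all after 4 days. The labels call KARPAS-422 and Pfeiffer responsive and RL non-responsive in phenotype. Each treated line had a compound of its own, so line and compound cannot be told apart, and the DMSO cells carry the EZH2 change as well. Every line is a tumour line, and since no label names replicates as separate cultures, a p-value here reflects the variation among these libraries alone.

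MHC class II molecules are pairs of an alpha and a beta chain that show peptides from endocytosed proteins to CD4+ T cells, and B cells carry them constitutively. CIITA, the class II transactivator, does not bind DNA itself and is recruited to class II promoters by the RFX complex, NF-Y and CREB at the X and Y boxes. CD74, the invariant chain, holds new class II molecules and guides them to endosomes, where HLA-DM exchanges its remnant for peptide and HLA-DO, mainly a product of B cells, restrains HLA-DM. HLA-DR and HLA-DP are classical presenting molecules.

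The promoter sequences of 8 of the 10 genes were found in RefSeq (GRCh38.p14), and positions -140 to -31 are shown for HLA-DOA and HLA-DPB1, whose transcripts rose in KARPAS-422 with CPI-169, and for the 4 genes whose transcripts fell there. Position 0 is the first base of the annotated transcript. Capitals mark 3 motifs on either strand, the X box-like letters AGNNACNGA, the X2-side repeat TGATGATG, whose first 3 bases may be the last 3 of an X box-like match, and the Y box letters ATTGG. The motif letters were chosen after these promoters had been read.
HLA-DOA (chr6:33009622-33009731, minus strand): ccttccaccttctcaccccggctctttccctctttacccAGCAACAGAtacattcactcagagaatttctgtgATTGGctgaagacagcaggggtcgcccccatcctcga
HLA-DPB1 (chr6:33075850-33075959, plus strand): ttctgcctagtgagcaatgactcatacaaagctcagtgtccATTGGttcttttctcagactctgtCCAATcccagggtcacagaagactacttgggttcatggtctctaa
HLA-DRB1 (chr6:32589879-32589988, minus strand): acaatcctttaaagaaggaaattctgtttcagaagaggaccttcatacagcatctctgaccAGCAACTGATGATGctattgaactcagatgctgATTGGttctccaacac
HLA-DMA (chr6:32953128-32953237, minus strand): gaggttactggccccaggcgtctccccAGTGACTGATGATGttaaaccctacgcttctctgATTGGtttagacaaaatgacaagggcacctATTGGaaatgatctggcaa
HLA-DMB (chr6:32941059-32941168, minus strand): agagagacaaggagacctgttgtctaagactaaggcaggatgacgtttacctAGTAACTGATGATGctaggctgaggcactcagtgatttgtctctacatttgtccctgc
HLA-DOB (chr6:32817033-32817142, minus strand): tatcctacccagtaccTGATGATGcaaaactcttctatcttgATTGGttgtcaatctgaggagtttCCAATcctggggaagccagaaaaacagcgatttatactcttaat

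An X box-like match followed on its strand by a Y box 5 to 30 bases later was found in the promoters of HLA-DRB1, HLA-DMA and HLA-DOA and in 0.367% of 35116 RefSeq promoters of the same length. Only these letters were searched, so a promoter without a match, such as that of HLA-DPB1, is not shown to lack an X box. Over 300 bases around the start, the X box-like letters occurred in 15.3%, the repeat in 0.94% and the Y box in 34.6% of all promoters. The repeat was found in HLA-DRB1 (positions -73 to -66), HLA-DMA, HLA-DMB and HLA-DOB, which were the 4 genes whose transcripts fell in KARPAS-422. It was absent from these windows of HLA-DOA, HLA-DPB1, HLA-DPA1 and CD74, whose transcripts rose. CIITA and HLA-DRA also rose there but had no promoter sequence to search. In Pfeiffer with GSK343, HLA-DMA and HLA-DOB, which hold the repeat, were called higher (log2 fold changes 0.44 and 0.90). The match of the repeat to the falls in KARPAS-422 was seen after the values were known and has no test. Of 63 other tested genes with the repeat in a promoter, 30.2% were higher and 34.9% lower in KARPAS-422, against 28.7% and 32.9% of 9400 tested genes with a promoter sequence. In Pfeiffer with GSK343, 12.7% of the 63 were higher and 4.76% lower, against 14.9% and 18.8% of the 9400.

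The deposited values are FPKM, fragments per kilobase of transcript, scaled to the mapped fragments of the library. The FPKM sums of the libraries ran from 369500 to 628300, and the depth in reads is unknown. Within a line, relative depth ranged from 0.651 to 1.34. Replicates correlated across the tested genes at a Pearson's r of 0.993 to 0.997, except the 2 GSK343 libraries, at 0.970. All 6 B cell markers reached 1 FPKM in every group, and none of 6 monocyte and macrophage markers did in any group. Among T and NK cell markers only CD8A exceeded 1 FPKM in Pfeiffer (297 and 395 FPKM with GSK343, 411 and 412 FPKM with DMSO), while CD2 stayed at or below 0.0130 FPKM there.

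CIITA (16:10971054-11026079 in hg19) was lowest in RL and highest in GSK343-treated Pfeiffer cells. It measured 28.8, 32.2 and 30.5 FPKM in the 3 KARPAS-422 libraries with CPI-169, against 18.7, 15.4 and 16.8 FPKM with DMSO. Pfeiffer cells had 79.4 and 129.6 FPKM with GSK343, against 68.1 and 74.8 FPKM with DMSO, and RL cells had 10.8 and 12.05 FPKM. None of the 5 groups overlapped with its neighbour in that order.

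CD74 (5:149781199-149792492) was the most abundant of the 10 transcripts per length in every group. Its level was 1071, 1088 and 1053 FPKM with CPI-169, against 598, 614 and 540 FPKM with DMSO in KARPAS-422. With GSK343 Pfeiffer cells had 4469 and 5801 FPKM, against 3343 and 3724 FPKM with DMSO, and RL cells had 879 and 934 FPKM. Its order differed from that of CIITA in one place, KARPAS-422 with DMSO lying below RL.

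The summed FPKM of the 9 genes other than CIITA was 0.570% ± 0.0104 of all FPKM with CPI-169 and 0.390% ± 0.00908 with DMSO in KARPAS-422 (SD, n = 3 each). In Pfeiffer it was 2.23% ± 0.190 with GSK343 and 1.64% ± 0.0844 with DMSO, and in RL 0.370% ± 0.00444 (SD, n = 2 each). The inhibitor libraries lay above the DMSO libraries in both lines.

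**Figure D1:**
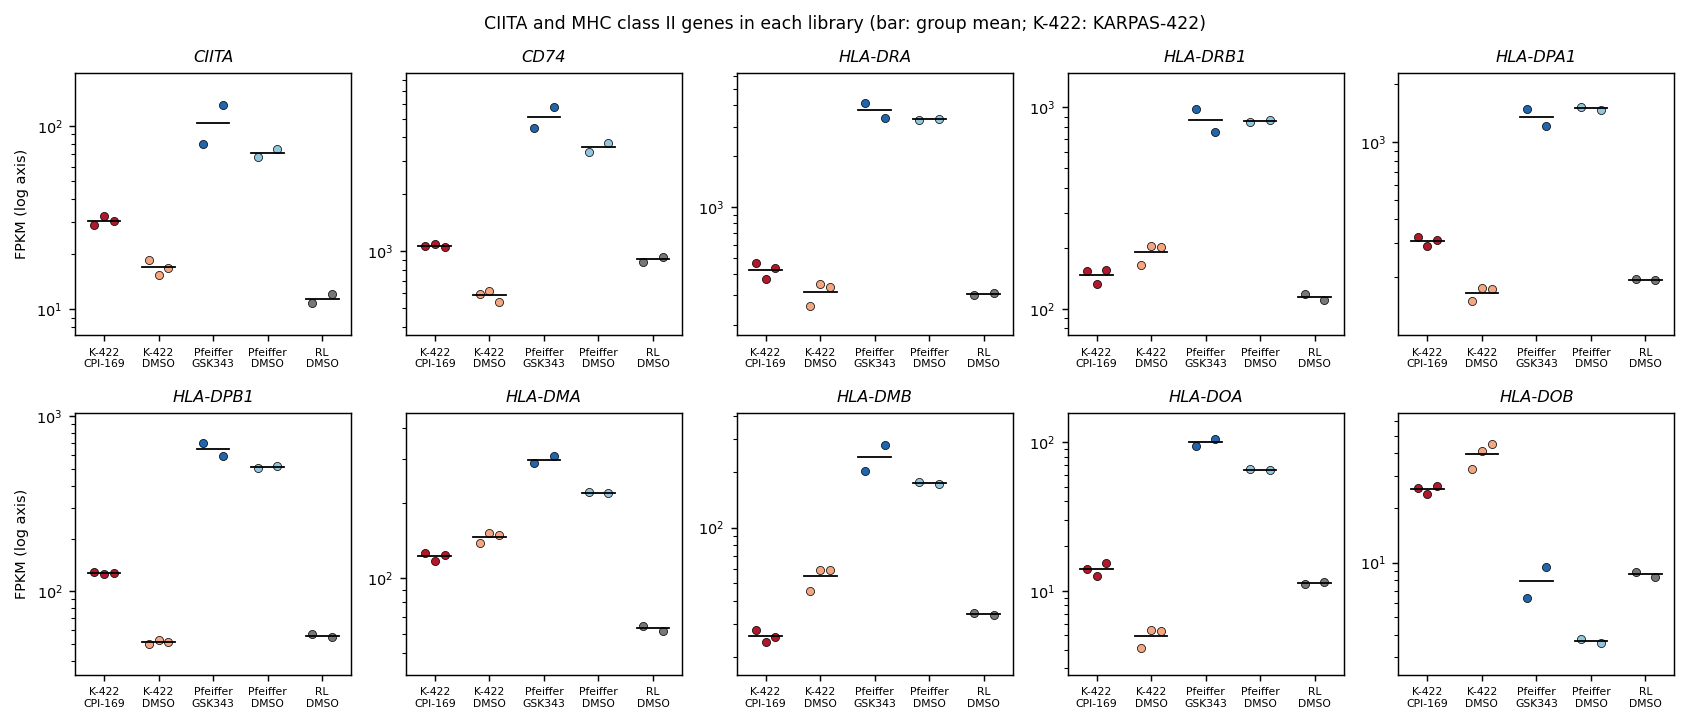
FPKM of CIITA and the 9 class II genes in each library, on a log axis of its own for each gene, with a bar at the group mean. Pfeiffer libraries stand above the other lines for every gene except HLA-DOB, which is highest in KARPAS-422 with DMSO (32.9 to 44.7 FPKM).

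In KARPAS-422 treated with CPI-169, the transactivator, the invariant chain, both HLA-DP chains, HLA-DRA and HLA-DOA rose, and both HLA-DM chains, HLA-DRB1 and HLA-DOB fell. The 10 genes thus split into 6 higher and 4 lower, in a comparison that called 26.9% of all tested genes higher and 27.3% lower (54.2% in either direction, limma with Benjamini-Hochberg adjustment at 0.05). The median log2 fold change was 0.62 over the 10 genes and 0.01 over all tested genes. Every log2 value is on the log2(FPKM + 1) scale.

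CIITA was 1.80-fold higher with CPI-169 than with DMSO (log2 fold change 0.81, SE 0.150, adjusted p = 8.91e-04, limma with Benjamini-Hochberg adjustment). CD74 was 1.83-fold higher (log2 fold change 0.87, SE 0.144, adjusted p = 4.22e-04, limma). The lowest CPI-169 library exceeded the highest DMSO library for both genes, and both calls held under all 20 alternatives.

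The HLA-DR chains moved apart. HLA-DRA (6:32407618-32412823), the nearly invariant alpha chain, had 464, 374 and 433 FPKM with CPI-169, against 261, 351 and 335 FPKM with DMSO. Its groups lay next to each other without overlap (log2 fold change 0.43, SE 0.148, adjusted p = 0.0309, limma). HLA-DRB1 (6:32546545-32557625), the polymorphic beta chain, had 155, 134 and 156 FPKM with CPI-169, against 166, 206 and 202 FPKM with DMSO. All CPI-169 libraries were below all DMSO libraries (log2 fold change -0.36, SE 0.127, adjusted p = 0.0315, limma). The call of HLA-DRA was lost without CPI-169 replicates 1 or 3 or DMSO replicate 1 (adjusted p of 0.0865 to 0.114, limma), and that of HLA-DRB1 without any CPI-169 replicate or DMSO replicates 2 or 3 (adjusted p of 0.05004 to 0.115).

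Both HLA-DP chains rose. HLA-DPA1 (6:33032345-33048552), the alpha chain, had 322, 290 and 312 FPKM with CPI-169, against 151, 176 and 174 FPKM with DMSO. Its lowest CPI-169 library was well above its highest DMSO library (log2 fold change 0.88, SE 0.109, adjusted p = 5.73e-05, limma). HLA-DPB1 (6:33043702-33054978), the beta chain, had 128, 125 and 128 FPKM with CPI-169, against 50.2, 52.3 and 51.3 FPKM with DMSO, a 2.48-fold difference. It had the lowest adjusted p of the 10 genes in this line (log2 fold change 1.29, SE 0.0770, adjusted p = 3.88e-07, limma). The 2 genes overlap by 4851 bases in the annotation, and since the handling of strand is not given, their reads may have been shared.

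The peptide editor fell. HLA-DMB (6:32902405-32908847), its beta chain, had 28.0, 24.01 and 25.6 FPKM with CPI-169, against 45.4, 58.6 and 59.2 FPKM with DMSO, a 2.10-fold difference between the means. The groups were far apart (log2 fold change -1.03, SE 0.131, adjusted p = 6.68e-05, limma). HLA-DMA (6:32916389-32936871), its alpha chain, had 126, 117 and 124 FPKM with CPI-169, against 138, 151 and 149 FPKM with DMSO. This smaller difference (log2 fold change -0.25, SE 0.072, adjusted p = 0.0130, limma) missed the threshold without CPI-169 replicate 2 (adjusted p = 0.0512), where the members lower numbered 2 instead of 4. HLA-DMB was 0.211 ± 0.00957 of HLA-DMA with CPI-169 and 0.371 ± 0.0370 with DMSO (SD, n = 3 each).

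The chains of HLA-DO, the inhibitor of HLA-DM, moved in opposite directions. HLA-DOA (6:32971954-32977389), its alpha chain, had 14.1, 12.6 and 15.3 FPKM with CPI-169, against 4.09, 5.43 and 5.33 FPKM with DMSO. This 2.83-fold rise was the largest of the 10 (log2 fold change 1.34, SE 0.102, adjusted p = 1.97e-06, limma). HLA-DOB (6:32780539-32784825), its beta chain, had 25.9, 23.9 and 26.6 FPKM with CPI-169, against 32.9, 40.9 and 44.7 FPKM with DMSO. It was lower in every CPI-169 library (log2 fold change -0.60, SE 0.136, adjusted p = 0.00310, limma). HLA-DOB was 1.82 ± 0.0825 times HLA-DOA with CPI-169 and 7.99 ± 0.428 times with DMSO (SD, n = 3 each).

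The markers of dendritic cells summed to 111 to 125 FPKM with CPI-169, against 48.9 to 55.4 FPKM with DMSO. LAMP3 made up most of this (100.2, 107.5 and 114.0 FPKM with CPI-169, 43.3, 45.7 and 39.4 FPKM with DMSO), while FLT3, CLEC9A and CLEC10A were at 0 in all 6 libraries. The 6 B cell markers summed to 1479 to 1610 FPKM with CPI-169, against 1841 to 2033 FPKM with DMSO. They did not move together: 1 was called higher and 3 lower, beside 26.9% and 27.3% of all tested genes. MS4A1 had 329, 286 and 324 FPKM with CPI-169, against 138, 177 and 172 FPKM with DMSO. T and NK cell markers summed to 53.2 to 60.0 FPKM with CPI-169, against 35.5 to 37.2 FPKM with DMSO, mainly CD3G (49.0 to 55.2 FPKM with CPI-169, 34.0 to 35.3 FPKM with DMSO), while CD2 was at 0. The part of these lists in the class II result was not tested, and fewer cells with a transcript cannot be told apart from less RNA per cell.

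In Pfeiffer treated with GSK343, 5 of the 10 genes rose and 0 fell, in a comparison that called 12% of all tested genes higher and 17.5% lower (29.5% in either direction, limma with Benjamini-Hochberg adjustment). The 5 were CD74, HLA-DPB1, HLA-DMA, HLA-DOA and HLA-DOB. The median log2 fold change over the 10 genes was 0.44, and over all tested genes it was -0.03. At an unadjusted p under 0.05, the number lower was also 0.

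HLA-DOB had the largest fold, with 6.36 and 9.43 FPKM with GSK343, against 3.80 and 3.62 FPKM with DMSO. Both GSK343 libraries were above both DMSO libraries (log2 fold change 0.90, SE 0.166, adjusted p = 0.00272, limma). HLA-DOA had 94.5 and 105.7 FPKM with GSK343, against 65.7 and 64.8 FPKM with DMSO, again without overlap (log2 fold change 0.61, SE 0.125, adjusted p = 0.00489, limma). Both chains of HLA-DO were thus higher in this line.

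HLA-DMA had 290 and 308 FPKM with GSK343, against 221 and 220 FPKM with DMSO (log2 fold change 0.44, SE 0.0882, adjusted p = 0.00437, limma). HLA-DMB had 203 and 279 FPKM with GSK343, against 176 and 173 FPKM with DMSO. Its groups did not overlap, but the GSK343 libraries lay far apart and the gene missed the threshold (log2 difference 0.45, SE 0.160, adjusted p = 0.0588, limma), which it passed without GSK343 replicate 1 (0.68, adjusted p = 0.00532) or KARPAS-422 DMSO replicate 1 (0.0323) and with median scaling (0.0183) or quantile normalization (0.0250). A readthrough transcript annotated over both genes, XXbac-BPG181M17.5, took 68.6 and 83.9 FPKM with GSK343, against 45.7 and 59.4 FPKM with DMSO. In KARPAS-422 and RL it was at most 0.200 FPKM, so the HLA-DM levels of Pfeiffer and of the other lines are divided differently among annotated genes.

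CD74 was higher in both GSK343 libraries (log2 fold change 0.53, SE 0.176, adjusted p = 0.0449, limma), but its call was lost in 15 of 20 alternatives. CIITA missed the threshold (log2 difference 0.50, SE 0.184, adjusted p = 0.0630, limma), with GSK343 replicate 2 far above replicate 1. CIITA also passed with median scaling (adjusted p = 0.0368) and quantile normalization (0.0324). Without GSK343 replicate 1 CIITA passed at a log2 fold change of 0.85 (adjusted p = 4.01e-04, limma), and without replicate 2 the difference was 0.15.

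Of the presenting chains, HLA-DPB1 had 699 and 593 FPKM with GSK343, against 503 and 519 FPKM with DMSO (log2 fold change 0.33, SE 0.0943, adjusted p = 0.0233, limma). Its call was lost without Pfeiffer DMSO replicate 1 (adjusted p = 0.114) or 2 (0.0674), and without either of them the genes called higher numbered 3. HLA-DPA1 had 1489 and 1212 FPKM with GSK343, against 1512 and 1470 FPKM with DMSO, and the groups overlapped (log2 difference -0.15, 95% interval -0.45 to 0.15, adjusted p = 0.435, limma), with a difference of 0.017 under quantile normalization.

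The HLA-DR chains were not called. HLA-DRA had 4141 and 3369 FPKM with GSK343, against 3268 and 3344 FPKM with DMSO, a log2 difference of 0.18 with a 95% interval of -0.23 to 0.58. HLA-DRB1 had 986 and 753 FPKM with GSK343, on either side of 846 and 865 FPKM with DMSO, a difference of 0.01 with an interval of -0.33 to 0.355. Its sign changed when GSK343 replicate 1 (-0.18) or Pfeiffer DMSO replicate 1 (-0.0054) was left out. With the Pfeiffer groups fitted alone, where only the spread of 4 libraries is used, none of the 10 genes passed (adjusted p of 0.0889 to 0.483 for the 5 that were called in the fit of all libraries). CTSB, PRDM1 and DEXI, which are not members and were called in the fit of all libraries, missed the threshold there too (adjusted p of 0.0516, 0.0775 and 0.0734, limma). The share of all tested genes that passed in that fit is not reported here.

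Epithelial and stromal markers summed to 58.2 and 80.8 FPKM with GSK343, against 141 and 142 FPKM with DMSO. The lower sum came mainly from EPCAM (49.8 and 66.7 FPKM with GSK343, 134 and 135 FPKM with DMSO). The list did not move together: of 5 tested markers, 2 were called higher and 1 lower, with a median log2 fold change of 0.32. Among all tested genes 12% were higher and 17.5% lower. KRT18, COL1A1, COL1A2 and PDGFRB were higher in both GSK343 libraries than in both DMSO libraries, and KRT8 overlapped. The B cell markers summed to 2066 to 2509 FPKM with GSK343, against 2599 to 2659 FPKM with DMSO, and 0 of the 6 were called. The part of these lists in the class II values was not tested.

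**Figure D2:**
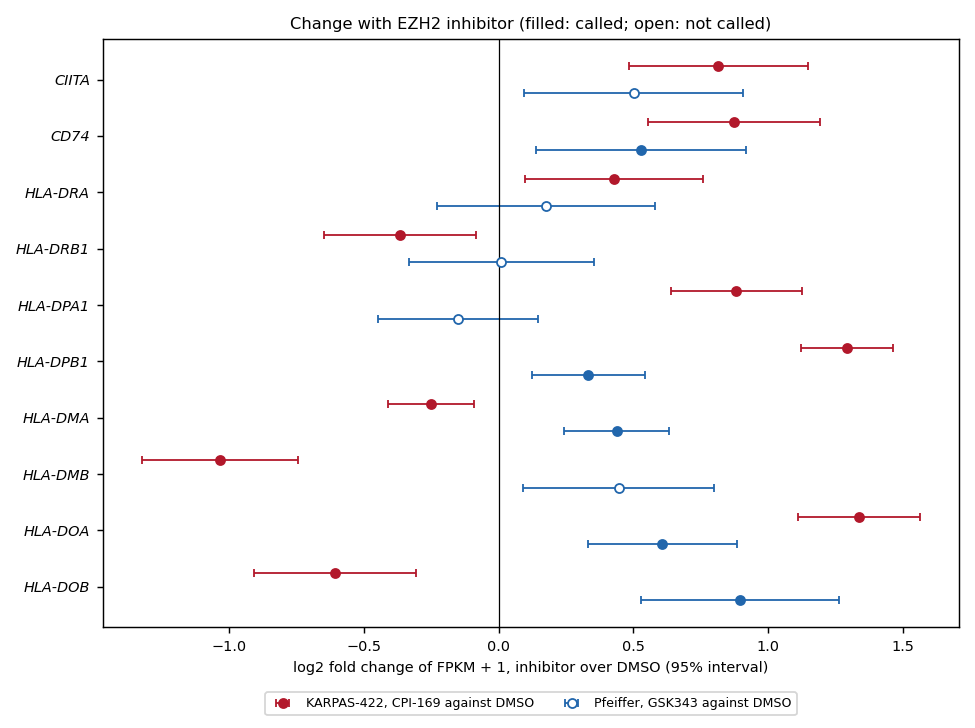
Log2 fold change of FPKM + 1, inhibitor over DMSO, with its 95% interval for each gene in KARPAS-422 (CPI-169) and Pfeiffer (GSK343), where filled points passed an adjusted p of 0.05. HLA-DMA and HLA-DOB lie below 0 in KARPAS-422 and above 0 in Pfeiffer, both called in each line.

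The responses of the lines were compared directly, as the KARPAS-422 log2 fold change minus that of Pfeiffer. This difference was called for 6 of the 10 genes, 3 higher and 3 lower, beside 23.8% higher and 18.8% lower among all tested genes (42.6% in either direction). With median scaling the calls over all genes were 3623 higher and 4564 lower, against 4460 and 3523 as deposited, and the same 6 genes passed.

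The difference was 1.03 for HLA-DPA1, 0.96 for HLA-DPB1 and 0.73 for HLA-DOA (adjusted p of 9.29e-04, 1.78e-04 and 0.00462, limma with Benjamini-Hochberg adjustment). It was -0.69 for HLA-DMA, -1.48 for HLA-DMB and -1.50 for HLA-DOB (adjusted p of 8.86e-04, 3.19e-04 and 3.68e-04, limma). All 6 calls held in the 20 alternatives.

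For CIITA the difference of the responses was 0.31 (95% interval -0.21 to 0.84, adjusted p = 0.312, limma), and for CD74 it was 0.35 (-0.16 to 0.85, adjusted p = 0.245). HLA-DRA differed by 0.25 (-0.27 to 0.77) and HLA-DRB1 by -0.38 (-0.82 to 0.07), neither called. Without GSK343 replicate 2 the difference was called for CIITA (0.66, adjusted p = 0.00407, limma) and for HLA-DRB1 (-0.57, adjusted p = 0.0271), and without replicate 1 it was -0.037 for CIITA. Quantile normalization also called HLA-DRB1 (-0.60, adjusted p = 7.21e-04).

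The balance between HLA-DO and HLA-DM was computed in each library as the mean FPKM of HLA-DOA and HLA-DOB over that of HLA-DMA and HLA-DMB. It was 0.259, 0.258 and 0.279 with CPI-169, against 0.201, 0.221 and 0.240 with DMSO, and the groups did not overlap. An exact permutation test gave a two-sided p of 0.1, the smallest that 3 against 3 libraries allow (0.2 adjusted over 2 comparisons by Benjamini-Hochberg; log2 difference 0.27). Pfeiffer cells had ratios of 0.205 and 0.196 with GSK343, against 0.175 and 0.174 with DMSO, also without overlap (log2 difference 0.20, exact permutation p = 0.333, the smallest that 2 against 2 allow). RL cells had 0.203 and 0.208.

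With geometric in place of arithmetic means, which weight the scarcer chain more, the log2 difference was 1.10 in KARPAS-422 and 0.39 in Pfeiffer. The chains were matched in none of the lines. Per length, HLA-DOB was 0.0782 ± 0.0155 of HLA-DOA with GSK343 and 0.0569 ± 0.00138 with DMSO in Pfeiffer, and 0.764 ± 0.0546 of it in RL (SD, n = 2 each). CD74 was 2.55 ± 0.318 times HLA-DRA with CPI-169 and 1.88 ± 0.359 times with DMSO in KARPAS-422 (SD, n = 3 each).

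**Figure D3:**
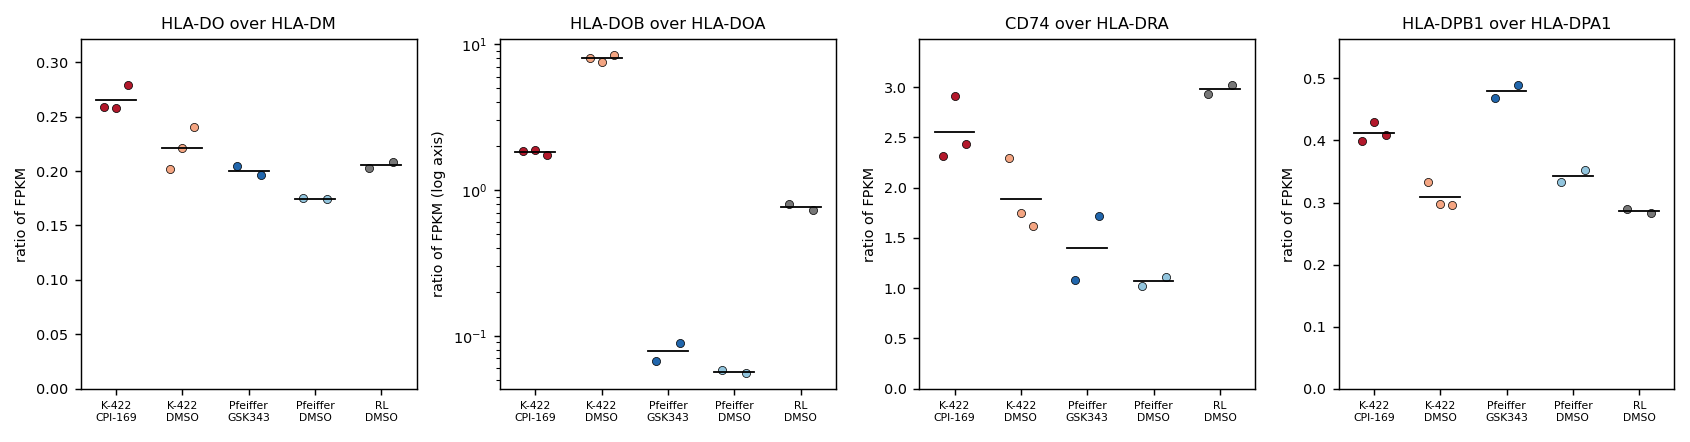
Ratios of FPKM in each library with group means as bars, for HLA-DO over HLA-DM (means of both chains), HLA-DOB over HLA-DOA (log axis), CD74 over HLA-DRA and HLA-DPB1 over HLA-DPA1. HLA-DOB over HLA-DOA falls in 5 separate ranges, with means of 1.82 in KARPAS-422 with CPI-169, 7.99 with DMSO, 0.0782 in Pfeiffer with GSK343, 0.0569 with DMSO and 0.764 in RL.

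In DMSO, Pfeiffer stood above both other lines for 9 of the 10 genes. The 3 comparisons between lines share their DMSO libraries with each other and with the inhibitor comparisons. RL against KARPAS-422 gave 2 genes higher and 5 lower, beside 33.6% higher and 33.2% lower among all tested genes (66.8% in either direction, limma with Benjamini-Hochberg adjustment). HLA-DOA was 2.28-fold higher in RL (11.1 and 11.5 FPKM in RL, 4.09 to 5.43 FPKM in KARPAS-422; log2 difference 1.06, adjusted p = 9.86e-06, limma). CD74 was higher as well (0.63), but not under quantile normalization (0.11).

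HLA-DOB was 4.57-fold lower in RL than in KARPAS-422, with 8.91 and 8.36 FPKM in RL (log2 difference -2.06, adjusted p = 4.46e-07, limma). HLA-DMA was 2.32-fold lower (64.2 and 61.7 FPKM in RL; log2 difference -1.20, adjusted p = 2.17e-07, limma), and HLA-DRB1 (-0.72), HLA-DMB (-0.65) and CIITA (-0.53) were also lower. The CIITA call was lost without KARPAS-422 DMSO replicate 1 (adjusted p = 0.0526, limma) or RL replicate 1 (0.106).

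HLA-DRA had 300.1 and 309 FPKM in RL, inside the KARPAS-422 DMSO range (log2 difference -0.04, 95% interval -0.41 to 0.33). HLA-DPA1 had 196 and 193 FPKM in RL (0.22, -0.05 to 0.50) and HLA-DPB1 56.9 and 54.7 FPKM (0.12, -0.07 to 0.31), and none of the 3 was called. The sign of HLA-DRA changed with median scaling (0.016) and without KARPAS-422 DMSO replicates 2 (0.043) or 3 (0.0080), and those of HLA-DPA1 (-0.10) and HLA-DPB1 (-0.049) changed with quantile normalization, which called HLA-DRA lower (-0.59).

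RL against Pfeiffer gave 1 gene higher and 9 lower, beside 35.6% and 38.7% among all tested genes (74.3% in either direction), with a median log2 difference of -2.49 over the 10 genes and -0.03 over all. HLA-DRA was 10.9-fold lower in RL (log2 difference -3.44, adjusted p = 2.81e-08, limma with Benjamini-Hochberg adjustment) and HLA-DPB1 9.16-fold lower (-3.17). CIITA was 6.25-fold lower (-2.54, adjusted p = 3.35e-07, limma). CD74 was 3.90-fold lower (-1.96), and under quantile normalization its difference shrank to -0.34 and was not called (adjusted p = 0.0563, limma). HLA-DOB was the gene that was higher in RL, by 2.33-fold (1.03, adjusted p = 1.91e-04, limma).

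KARPAS-422 against Pfeiffer also gave 1 gene higher and 9 lower, beside 39.8% and 43.2% among all tested genes (83% in either direction), with a median of -2.38 over the 10 genes. HLA-DOA was furthest below Pfeiffer (4.09 to 5.43 FPKM in KARPAS-422, 64.8 and 65.7 FPKM in Pfeiffer; log2 difference -3.48, adjusted p = 4.05e-10, limma). HLA-DRA followed at -3.40 and HLA-DPB1 at -3.29, while HLA-DMA differed by -0.59 and by 0.11 under quantile normalization. HLA-DOB was higher in KARPAS-422 (32.9 to 44.7 FPKM in KARPAS-422, 3.62 and 3.80 FPKM in Pfeiffer; log2 difference 3.09, adjusted p = 9.04e-09, limma). The HLA-DO chains thus ranked in opposite order over the 3 lines: HLA-DOA lowest and HLA-DOB highest in KARPAS-422, HLA-DOA highest and HLA-DOB lowest in Pfeiffer.

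**Figure D4:**
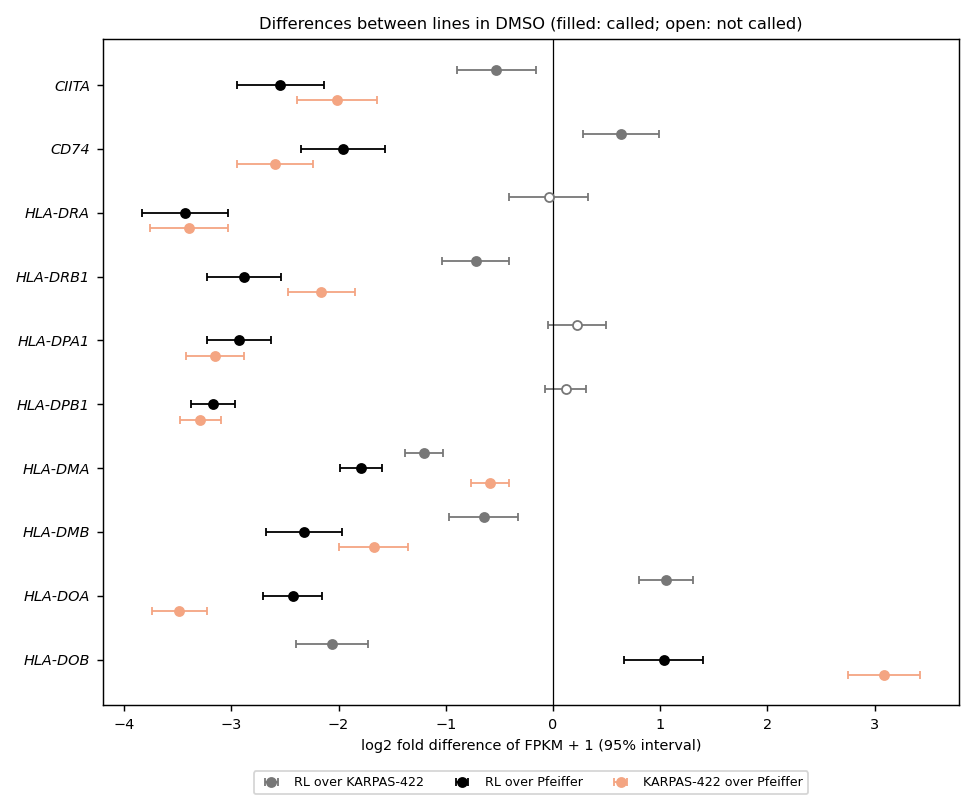
Log2 differences of FPKM + 1 between lines in DMSO with 95% intervals, RL over KARPAS-422, RL over Pfeiffer and KARPAS-422 over Pfeiffer, where filled points passed an adjusted p of 0.05. Pfeiffer exceeds both lines in 9 of 10 genes, and HLA-DOB, at 3.09 for KARPAS-422 over Pfeiffer, is the exception.

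Across the 12 libraries, which share 3 lines, the log2 level of CIITA followed HLA-DPB1 most closely among the 10 genes (Pearson's r = 0.964). The r was 0.933 for HLA-DPA1, 0.929 for CD74, 0.925 for HLA-DRA, 0.909 for HLA-DOA, 0.882 for HLA-DRB1, 0.878 for HLA-DMA, 0.796 for HLA-DMB and -0.55 for HLA-DOB. Many genes outside the 10 had an r as high. Ranked by r among all tested genes, HLA-DPB1 stood at 90, HLA-DPA1 at 333, CD74 at 373 and HLA-DRA at 438. HLA-DOA stood at 717, HLA-DRB1 at 1490, HLA-DMA at 1616, HLA-DMB at 3300 and HLA-DOB at 13652. Within the 6 KARPAS-422 libraries, which form a treated and a DMSO group, r was 0.970 for HLA-DPB1 and 0.968 for CD74. It was 0.925 for HLA-DOA, 0.923 for HLA-DPA1 and 0.660 for HLA-DRA there. The negative values were -0.92 for HLA-DRB1, -0.98 for HLA-DMA, -0.99 for HLA-DMB and -0.95 for HLA-DOB. For HLA-DRB1, HLA-DMA and HLA-DMB the sign within KARPAS-422 was thus the opposite of that over all libraries. The 5 genes outside the 10 with the most similar pattern over the 12 libraries, among tested genes averaging at least 2 FPKM, were AC016747.3 (r = 0.983), GIMAP2 (0.983), KIF26B (0.983), TP53BP2 (0.981) and AC007283.5 (0.980).

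Of 5 further class II genes, the alpha chains HLA-DQA1 and HLA-DQA2 rose and the beta chains HLA-DQB1 and HLA-DQB2 fell in KARPAS-422 with CPI-169. Among all tested genes 26.9% were higher and 27.3% lower there (54.2% in either direction). HLA-DQA1 had 126, 116 and 126 FPKM with CPI-169, against 87.6, 103 and 101 FPKM with DMSO (log2 fold change 0.33, adjusted p = 0.0189, limma with Benjamini-Hochberg adjustment). HLA-DQB1 had 71.8, 62.5 and 63.3 FPKM with CPI-169, against 74.4, 80.4 and 79.7 FPKM with DMSO (-0.25, adjusted p = 0.0238, limma). HLA-DRB5 was not called in either line (-0.17 in KARPAS-422, -0.03 in Pfeiffer). The HLA-DQB1 call was lost without CPI-169 replicates 2 or 3 or DMSO replicates 2 or 3 (adjusted p of 0.0741 to 0.0897, limma), and that of HLA-DQA1 without CPI-169 replicates 1 or 3 or DMSO replicate 1 (0.0583 to 0.0647). In Pfeiffer with GSK343, HLA-DQA1 (0.42) and HLA-DQB2 (0.33) rose and 0 fell, beside 12% higher and 17.5% lower among all tested genes. HLA-DQA1 was called there in 10 of 20 alternatives (log2 values of 0.25 to 0.58), and not without GSK343 replicate 1 (0.25, adjusted p = 0.0973, limma), either Pfeiffer DMSO replicate, either RL replicate, or CPI-169 replicates 1 or 3. HLA-DQB2 was not called without Pfeiffer DMSO replicate 1 (adjusted p = 0.122, limma) or 2 (0.0706). The median of the 5 genes was -0.17 in KARPAS-422 and 0.33 in Pfeiffer. HLA genes vary between people and resemble each other in sequence, so fragments may have been misassigned or lost against hg19, differently in each line.

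Of the 7 genes for the factors at class II promoters, 3 rose and 2 fell in KARPAS-422, beside 26.9% higher and 27.3% lower among all tested genes. RFX5, the large subunit of the RFX complex, had 102, 90.9 and 102 FPKM with CPI-169, against 28.6, 33.7 and 31.4 FPKM with DMSO, a 3.14-fold difference (log2 fold change 1.62, adjusted p = 1.32e-06, limma). RFXANK (0.60) and NFYB (0.36) rose, CREB1 (-0.94) and NFYC (-0.50) fell, and RFXAP and NFYA were not called (0.34 and -0.19). In Pfeiffer 0 rose and 2 fell, NFYB (-0.80) and CREB1 (-0.56), beside 12% higher and 17.5% lower among all tested genes. CREB1 was called in 15 of 20 alternatives (-0.76 to -0.33), and not without GSK343 replicate 2 (-0.35, adjusted p = 0.0663, limma) or Pfeiffer DMSO replicates 1 (0.0664) or 2 (0.0705). RFX5 did not pass (0.41, adjusted p = 0.0545, limma) but was called in 4 of 20 alternatives. These were the filter of 5 FPKM (adjusted p = 0.0490, limma), median scaling (0.0159), quantile normalization (0.00750) and leaving out GSK343 replicate 1 (log2 difference 0.66). RFX5 had 44.1 and 62.9 FPKM with GSK343, against 39.9 and 39.1 FPKM with DMSO in Pfeiffer. The median of the 7 genes was 0.34 in KARPAS-422 and -0.19 in Pfeiffer.

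**Figure D5:**
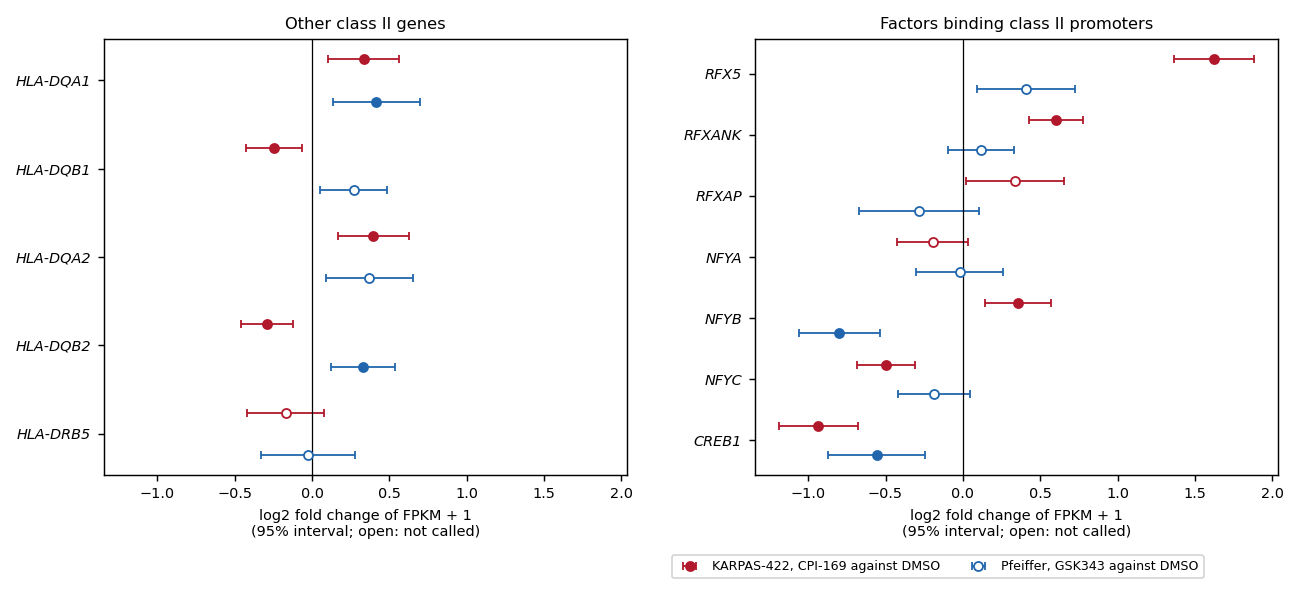
Log2 fold change of FPKM + 1 with 95% intervals for 5 further class II genes (left) and 7 genes of factors that bind class II promoters (right), CPI-169 over DMSO in KARPAS-422 and GSK343 over DMSO in Pfeiffer, open points not called. RFX5 has the largest rise, 1.62 in KARPAS-422, and NFYB is above 0 there and at -0.80 in Pfeiffer.

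Of 16 genes reported to regulate CIITA, 4 rose and 7 fell in KARPAS-422, and 4 rose and 2 fell in Pfeiffer (medians -0.08 and 0.20). Among all tested genes 26.9% were higher and 27.3% lower in KARPAS-422, and 12% and 17.5% in Pfeiffer. In KARPAS-422 IRF1 (1.00), which carries the interferon signal to CIITA, was among those that rose, and CREBBP (-1.50), a histone acetyltransferase, and the B cell factor PAX5 (-0.69) had the lowest fold changes. In Pfeiffer PRDM1 (2.08), a repressor of CIITA in plasma cells, and CREBBP (0.78) were highest among the called genes, and EZH2 (-0.84) and HDAC2 (-0.41) lowest. HDAC2 was not called without Pfeiffer DMSO replicate 2 (adjusted p = 0.0726, limma) or with quantile normalization (-0.18).

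Of 14 tested genes of class II trafficking and antigen proteolysis, 5 rose and 4 fell in KARPAS-422, and 6 rose and 0 fell in Pfeiffer (medians 0.13 and 0.15), beside the same 26.9% and 27.3% in KARPAS-422 and 12% and 17.5% in Pfeiffer among all tested genes. CTSH (0.99), a lysosomal protease, and CD83 (0.87), which limits removal of class II from the surface, were highest in KARPAS-422, and IFI30 (-1.11), a lysosomal thiol reductase, and RAB7A (-0.70) lowest. The CTSH call was lost without CPI-169 replicates 1 or 3 or KARPAS-422 DMSO replicates 1 or 3 (adjusted p of 0.0571 to 0.0759, limma). In Pfeiffer the protease genes CTSB (1.51) and CTSD (0.80) were highest. CD83 was also called higher there (0.48), with 444 and 439 FPKM with GSK343, against 318 and 314 FPKM with DMSO, while in KARPAS-422 it stayed at 1.69 FPKM or less with CPI-169.

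For the genes beside the members, the shares over all tested genes were again 26.9% higher and 27.3% lower in KARPAS-422, and 12% and 17.5% in Pfeiffer. Among 8 tested genes of the class II region of chromosome 6 that are not class II chains, 5 rose and 1 fell in KARPAS-422, with the peptide transporter genes TAP1 (1.05) and TAP2 (0.85) highest and BRD2 at -0.41. In Pfeiffer 1 rose and 0 fell, COL11A2 (0.46), at 0.269 and 0.792 FPKM with GSK343, against 0.0947 and 0.100 FPKM with DMSO. COL11A2 was called in 11 of 19 alternatives (log2 values of 0.21 to 1.54) and not without GSK343 replicate 2 (0.21, adjusted p = 0.165, limma), either Pfeiffer DMSO replicate or either RL replicate. The medians of the 8 genes were 0.54 in KARPAS-422 and 0.10 in Pfeiffer. A second annotated TAP2 gene, which is not the one given here, overlaps HLA-DOB by 3283 bases, and BRD2 overlaps HLA-DMA by 436 bases, so that some reads may have been shared. Of 6 tested neighbours of CIITA on chromosome 16, 2 rose and 2 fell in KARPAS-422, SOCS1 (1.09) and DEXI (0.36) against NUBP1 (-0.79) and LITAF (-0.62). The DEXI call in KARPAS-422 was lost without CPI-169 replicates 1 or 3 or DMSO replicates 1 or 2 (adjusted p of 0.0503 to 0.0611, limma). In Pfeiffer DEXI (1.22), which overlaps CIITA by 3333 bases, and SOCS1 (0.87) were highest and RMI2 (-1.06) and NUBP1 (-0.67) lowest, 3 rising and 2 falling in all (medians -0.13 in KARPAS-422 and 0.63 in Pfeiffer).

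Class I presentation, the pathway for peptides from the cytosol, had 11 of 14 genes higher and 1 lower in KARPAS-422, with HLA-F (1.86) and TAP1 highest and ERAP2 (-0.83) the one that fell, beside 26.9% higher and 27.3% lower among all tested genes. In Pfeiffer 5 rose and 0 fell, beside 12% and 17.5%, HLA-C (0.73) and HLA-E (0.72) being highest. TAP1, TAP2, PSMB8 and PSMB9 are in this list and in that of the class II region, so the counts of these lists share genes. The medians of the class I list were 0.67 in KARPAS-422 and 0.16 in Pfeiffer, beside 0.62 and 0.44 for CIITA and the 9 class II genes.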

How the data were processed

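RNA of 12 libraries was sequenced, and the authors deposited 1 table of FPKM values. The submitters' processing notes name TopHat 1.4.1, Cufflinks and the build hg19. Which Cufflinks version, annotation release and strand setting were used is not given in the sources here. An FPKM depends on the length and on the other transcripts of a library, and depth in reads is unknown.

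Columns were matched to samples by title and groups came from the labels. The members and the gene lists were chosen with earlier results of these data known. Each HLA symbol had 1 row on a primary chromosome; 5756 rows elsewhere had 0 values above 0, and 77 genes with missing values were left out. The 18731 genes that reached 1 FPKM in 2 or more libraries were transformed to log2(FPKM + 1), which understates changes of low genes. The 5 groups were fitted together in limma 3.58.1 in R 4.3.3 with a mean-variance trend, which left 7 residual degrees of freedom beside 3.45 from the prior; p-values were adjusted over all tested genes by Benjamini-Hochberg, with a threshold of 0.05. The fit was also run on simulated data with normal noise of the same spread in every group. Such data cannot show how the fit handles the wider spread of the GSK343 libraries. The ratio of HLA-DO to HLA-DM was tested by exact permutation (scipy 1.17.1). Alternatives were pseudocounts of 0.1 and 0.5, no filter and one of 5 FPKM, median scaling, quantile normalization, fits of only the groups compared, a replicate block and leaving out each library.

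All members, the other class II genes and the promoter factors were named; of the other lists, the 2 highest and 2 lowest called genes per comparison, and CD83 in Pfeiffer after its values were seen; 1 gene the rule names is not reported here. Promoters came from RefSeq (GRCh38.p14), 250 bases before to 50 from the start, matched by symbol, and positions of genes are those of the FPKM table.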

Additional observations from a re-analysis of the deposited data

Results flagged for a closer look

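The inhibitor response differed between the lines (KARPAS-422 minus Pfeiffer, tested as an interaction in limma with Benjamini-Hochberg adjustment) for 12 of the named class II genes and promoter factors. The genes compared were 10 members, 5 other class II genes and 7 promoter factors, and CIITA, CD74, HLA-DRA and HLA-DRB1 were among those not called. Among all tested genes 42.6% were called in this comparison. Among the members, the called difference was 1.03 for HLA-DPA1, 0.96 for HLA-DPB1 and 0.73 for HLA-DOA, and -0.69 for HLA-DMA, -1.48 for HLA-DMB and -1.50 for HLA-DOB. HLA-DMA and HLA-DOB were called lower with CPI-169 in KARPAS-422 and called higher with GSK343 in Pfeiffer. Among the other class II genes it was -0.51 for HLA-DQB1 and -0.62 for HLA-DQB2. Of the promoter factors, it was 1.22 for RFX5, 0.49 for RFXANK, 0.62 for RFXAP and 1.16 for NFYB. The RFXAP difference (adjusted p = 0.0467, limma) was called in 3 of 20 alternatives, with values of 0.29 to 0.95, and was lost on leaving out any library other than GSK343 replicate 2. The other 3 were called in all 20. Each line had its own compound, so line and compound cannot be told apart.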

How the results depend on the processing

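Of 1200 values of the 10 members under 20 alternatives, 1136 kept their direction and side of the threshold, 41 lost a call, 13 gained one and 10 changed sign. With only the Pfeiffer groups fitted, the members higher with GSK343 numbered 0, and with quantile normalization those higher in RL than in KARPAS-422 numbered 1. Over all tested genes, quantile normalization gave 6268 higher and 6260 lower in RL against KARPAS-422, beside 6302 and 6214 as deposited. Shares over all tested genes in the Pfeiffer-only fit and in the fits without 1 library are not reported here, so those counts are not particular to the members. Leaving out 1 library at a time, members lower with CPI-169 numbered 2 to 4 and members higher with GSK343 3 to 7. The log2 difference of the HLA-DO to HLA-DM ratio was 1.10 in KARPAS-422 and 0.39 in Pfeiffer with geometric means, and 0.20 to 0.33 and 0.17 to 0.23 without 1 library at a time. Signs of members changed for HLA-DRA in RL against KARPAS-422 (0.016 with median scaling; -0.17 to 0.043 without 1 library at a time, 0.0080 without KARPAS-422 DMSO replicate 3), for HLA-DPA1 (-0.10) and HLA-DPB1 (-0.049) there with quantile normalization, likewise for HLA-DPA1 in Pfeiffer (0.017) and HLA-DMA in KARPAS-422 against Pfeiffer (0.11, called as deposited), for HLA-DRB1 in Pfeiffer (-0.18 to 0.21 without 1 library at a time, -0.0054 without DMSO replicate 1), and for the CIITA difference between responses (-0.037 to 0.66). Among the other genes in Pfeiffer, HLA-DRB5 was 0.017 with median scaling, 0.16 with quantile normalization and -0.20 to 0.14 without 1 library at a time; NFYA was 0.024, 0.050 and -0.25 to 0.21 likewise (0.0080 without DMSO replicate 1), and RFXAP -0.62 to 0.050. In the difference of responses HLA-DQA2 was -0.082 with median scaling and -0.066 to 0.12 without 1 library at a time (-0.029, -0.056 and -0.016 without CPI-169 replicate 1, KARPAS-422 DMSO replicate 1 and Pfeiffer DMSO replicate 2), HLA-DQA1 -0.25 to 0.086, HLA-DRB5 -0.31 to 0.029 and NFYA -0.40 to 0.054. Between lines, quantile normalization gave RFXANK 0.019 (RL against Pfeiffer) and HLA-DRB5 0.19 (KARPAS-422 against Pfeiffer, called as deposited), and NFYA ran from -0.031 to 0.14 in RL against KARPAS-422 without 1 library at a time. The causes were not tested.

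The replicate numbers showed no clear pairing in KARPAS-422. Deviations of same-numbered libraries correlated there at -0.15, -0.25 and 0.16, and those of differently numbered ones at -0.25 to 0.33. In Pfeiffer the values were 0.14 for the same and -0.14 for different numbers. With 2 libraries per group they can only be equal and opposite, so pairing by number cannot be judged there. With the number as a replicate block, HLA-DRA (adjusted p = 0.0762, limma) and HLA-DRB1 (0.0552) missed the threshold in KARPAS-422, as did CD74 (0.0972) and HLA-DPB1 (0.0573) in Pfeiffer, where CIITA passed (0.0476). Quantile normalization gave 2652 genes higher and 2548 lower in Pfeiffer, against 2254 and 3281 as deposited, and moved the median of all genes by 0.15 and 0.16 for RL and KARPAS-422 against Pfeiffer; median scaling moved that of the difference of responses by -0.11. Groups of 2 or 3 libraries limit every comparison, most of all GSK343, and the unknown depth gives no counting error.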

Other observations

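The promoters that hold the X box-like and Y box pair belong to 42 tested genes outside the 10. In Pfeiffer with GSK343, 23.8% of these were higher and 11.9% lower, beside 14.9% and 18.8% of the 9400 tested genes with a promoter sequence. In KARPAS-422 with CPI-169, 26.2% were higher and 31.0% lower, beside 28.7% and 32.9%. The pair rule was set after the class II promoters had been read, and these shares are a description with no test.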
